A study of Mus musculus with 21 samples.

Results

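The proteasome genes of the mouse were followed in RNA sequencing libraries of oocytes and of the granulosa cells that surround them. The genes were chosen by symbol alone, as every gene whose name is Psm, a letter from a to g and a number, with an optional letter after it. That gave 49 of 55335 gene identifiers, and all 49 are annotated as protein coding on the GRCm38 build. They comprise 31 subunits of the standard 20S core and 19S cap, 4 immune and thymic forms of the beta subunits, the testis form Psma8, 5 activator genes, the inhibitor Psmf1 and 7 assembly chaperones. Subunits with other symbols are not among them. The libraries came from ICR mice in 5 groups. Young mice were 6 to 8 weeks old, and Aged mice were 18 months old, and neither received cells. The other 3 groups were mice of 18 months that had received human umbilical cord mesenchymal stem cells (UC-MSCs) under the ovarian capsule 3 weeks earlier: unsorted cells (Aged + Unsorted), or cells sorted for high (Aged + LRP1high) or low (Aged + LRP1low) surface LRP1, a receptor that takes up lipoproteins and other ligands. Oocytes gave 3 Young, 2 Aged, 2 Aged + Unsorted, 3 Aged + LRP1high and 2 Aged + LRP1low libraries, and granulosa cells gave 1, 2, 1, 3 and 2 libraries in the same order. The titles call the libraries biological replicates, but how many mice or cells stand behind a library is not given in the sources used here, so the tests measure the spread between these libraries.

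The proteasome breaks down proteins that carry chains of ubiquitin. Its 20S core is a barrel of alpha rings around beta rings, and the beta subunits Psmb5, Psmb6 and Psmb7 cut the protein chain inside it. The 19S cap holds the ATPases Psmc1 to Psmc6, which unfold the substrate, and non-ATPase subunits, some of which bind ubiquitin. In cells exposed to interferon, and in immune cells, Psmb8, Psmb9 and Psmb10 take the places of Psmb5, Psmb6 and Psmb7 in newly built cores, and the activator of Psme1 and Psme2 replaces the cap on part of them. Growing oocytes store messenger RNA and protein for the time after fertilization, and timed protein breakdown drives their meiotic divisions.

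The members differ in the sequence before their start sites, and the promoters below are those of the most abundant member and of the catalytic subunits with the immune forms that replace them, which the oocyte results turn on. RefSeq (GRCm38.p6) gave a window of 300 bases, 250 before and 50 after the start, for 41 of the 49 genes, of which some had more than 1, so that 44 windows of 32851 in all belonged to members. No window was given for Psma8, Psmb1, Psmb2, Psmb7, Psmc3, Psmd3, Psmd7 or Psmg2. The 150 bases before the start are shown 5′ to 3′ on the strand of the gene. Capitals mark matches, on either strand, to the antioxidant response element core (TGACNNNGC or TGAGNNNGC), the interferon-stimulated response element core (GAAA, any 2 bases, GAAA) or the CCAAT box.
Psma7 promoter, chr2:180042465-180042614, minus strand: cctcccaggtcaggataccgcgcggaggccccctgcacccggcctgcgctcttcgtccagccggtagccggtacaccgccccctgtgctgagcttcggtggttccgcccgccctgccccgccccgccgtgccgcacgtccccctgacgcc
Psmb5 promoter, chr14:54617996-54618145, minus strand: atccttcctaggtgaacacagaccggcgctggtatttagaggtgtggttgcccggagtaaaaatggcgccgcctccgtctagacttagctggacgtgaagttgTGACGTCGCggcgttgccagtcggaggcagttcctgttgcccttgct
Psmb8 promoter, chr17:34198045-34198194, plus strand: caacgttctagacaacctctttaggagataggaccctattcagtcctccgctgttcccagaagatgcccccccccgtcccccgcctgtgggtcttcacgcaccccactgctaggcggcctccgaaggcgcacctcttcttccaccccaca
Psmb6 promoter, chr11:70525207-70525356, plus strand: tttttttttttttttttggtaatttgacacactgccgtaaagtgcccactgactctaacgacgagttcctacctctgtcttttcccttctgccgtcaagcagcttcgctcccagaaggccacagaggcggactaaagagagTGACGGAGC
Psmb9 promoter, chr17:34187331-34187480, minus strand: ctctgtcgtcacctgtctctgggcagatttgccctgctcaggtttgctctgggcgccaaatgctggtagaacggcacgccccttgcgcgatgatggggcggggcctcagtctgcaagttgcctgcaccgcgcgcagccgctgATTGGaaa
Psmb10 promoter, chr8:105938393-105938542, minus strand: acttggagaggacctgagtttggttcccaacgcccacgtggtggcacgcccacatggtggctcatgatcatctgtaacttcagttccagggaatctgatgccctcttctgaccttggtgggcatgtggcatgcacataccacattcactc
Psmb5 held TGACGTCGC 47 bases before its start and Psmb6 held TGACGGAGC 9 bases before it, whereas the shown stretches of Psma7, Psmb8 and Psmb10 held no match and that of Psmb9 held only a reverse CCAAT box. The stretches of Psma7 and Psmb6 lie outside the gene as GENCODE draws it, and those of Psmb5, Psmb8, Psmb9 and Psmb10 overlap it, because GENCODE holds transcripts that start farther upstream. Over whole windows, either form of the antioxidant core was found in 38.6% of the 44 member windows and in 27.8% of all windows. The interferon core was found in 11.4% of member windows and 3.44% of all, in Psmb3, Psmd4, Psmd9, Psme1 and Psmg4. The CCAAT box was found in 31.8% of member windows and 37.4% of all. No searched motif contains another, and a match is a description of the sequence only.

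Several libraries stood apart before any comparison. Values are FPKM, fragments per kilobase of gene scaled to the fragments of the library, as deposited. Aligned sequence, computed from the ratio of coverage to FPKM, ranged from 0.278 to 3.40 gigabases in the 12 oocyte libraries and from 0.335 to 1.49 in the 9 granulosa libraries. The median of 10 oocyte markers, among them Zp3 and Gdf9, ranged from 0.892 to 1001 FPKM in oocyte libraries. It was 0.892 in Young 1, 11.6 in Aged 1, 5.02 in Aged + LRP1low 1 and 7.77 in Aged + LRP1low 2, and at least 84.9 in the other 8. The single granulosa Aged + Unsorted library went against its label, with an oocyte marker median of 799.7 FPKM and a granulosa marker median of 0.809. Its 49 proteasome genes correlated with those of oocyte Aged + Unsorted 2 with Pearson's r = 0.993 on the log2 scale over genes, which are not independent, and its values were 0.469 to 1.12 times those of that library over the 38 genes at 10 FPKM or more in both. It forms neither side of a comparison below. It does count toward the mean FPKM filter of the granulosa fits and of the fits of all 21 libraries. The repeat-like transcript Gm10800 took 6.92% to 86.6% of the TPM of granulosa libraries and up to 78.1% in oocyte libraries.

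The level of the proteasome genes differed between libraries of the same group. The median of the 49 genes was 1.86, 1.23 and 27.8 FPKM in the 3 Young oocyte libraries, 4.61 and 27.6 in Aged, 18.8 and 51.0 in Aged + Unsorted, 35.5, 31.7 and 3.29 in Aged + LRP1high, and 6.72 and 6.12 in Aged + LRP1low. The highest and the lowest library of a group lay far apart in every oocyte group but Aged + LRP1low, whose libraries lay close to each other. The ranges of the other 4 groups overlapped, and both Aged + LRP1low values lay within the ranges of Young, Aged and Aged + LRP1high. In granulosa cells the median was 37.4 in the Young library, 0 and 0.211 in Aged, 3.31, 0.478 and 1.75 in Aged + LRP1high, and 0.714 and 0.820 in Aged + LRP1low. Between 0 and 16 of the 49 genes were listed at 0 in an oocyte library and between 2 and 26 in a granulosa library. Because subunits that every cell needs were among them, a 0 says only that the gene is listed at 0. FPKM is scaled to each library, so these levels give neither the number of cells nor the RNA per cell.

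**Figure D1:**
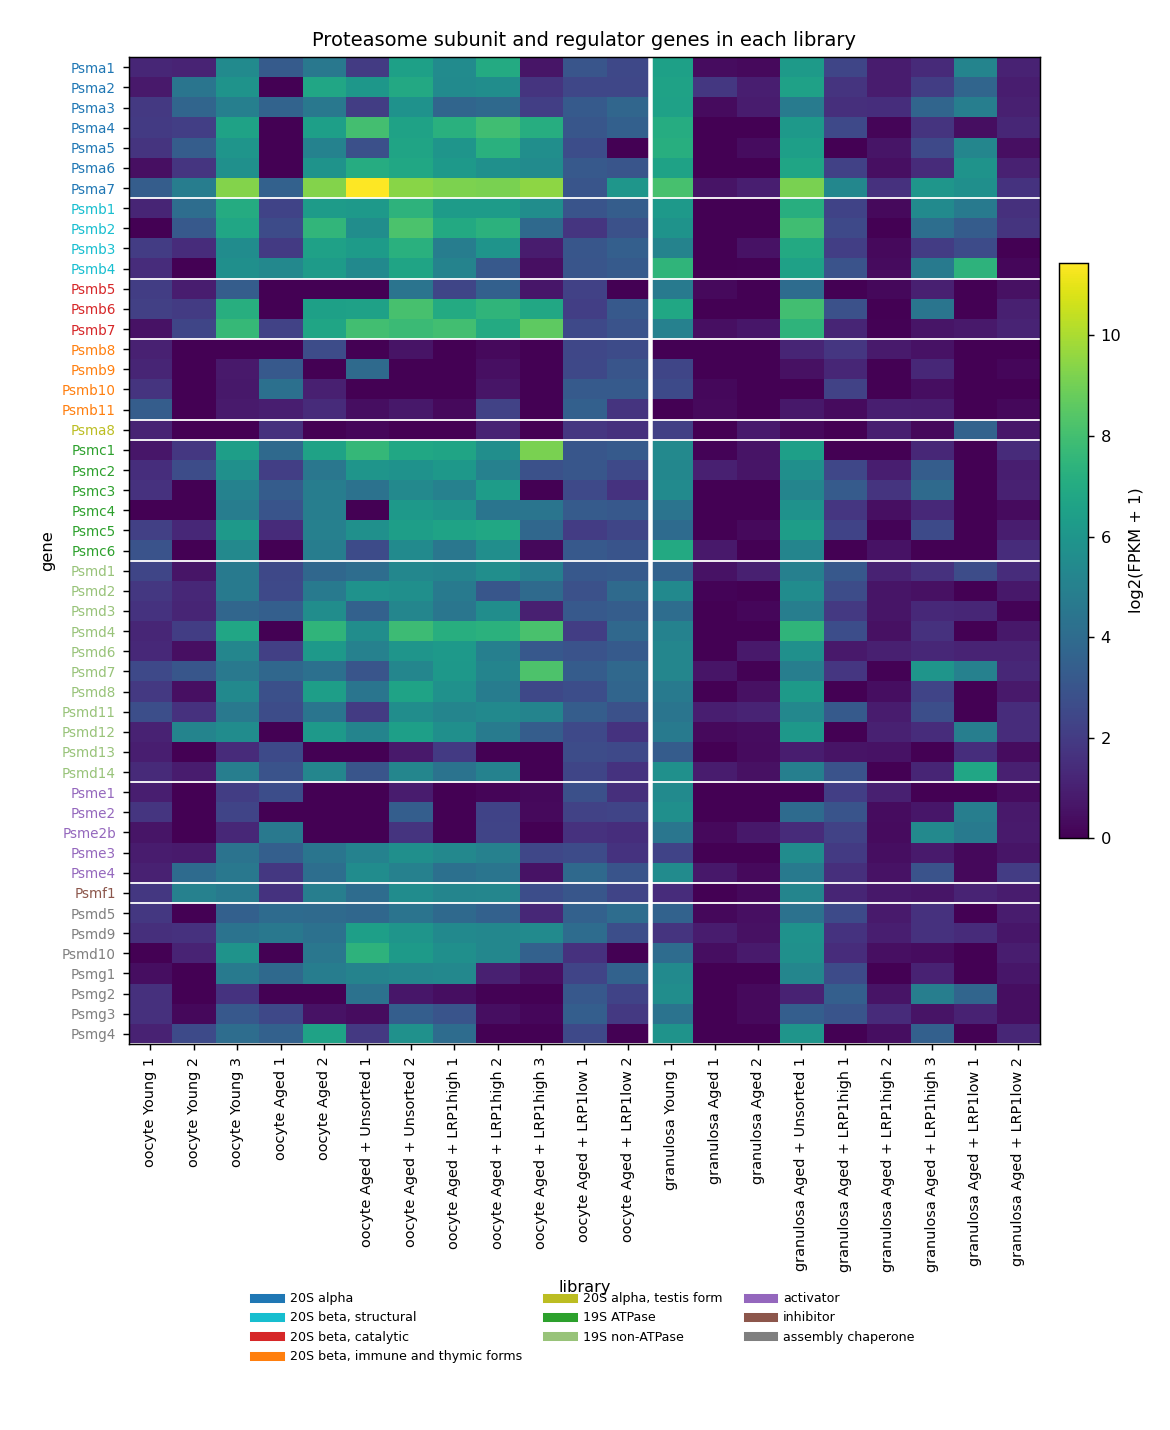
Levels of the 49 proteasome genes as log2(FPKM + 1) (colour) in 21 libraries (columns), with genes (rows) grouped and their names coloured by role and oocytes left of the thick white line. Psma7 is the brightest row in most oocyte libraries, the immune forms Psmb8, Psmb9 and Psmb10 are dark in most, and both granulosa Aged columns are dark throughout.

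**Figure D2:**
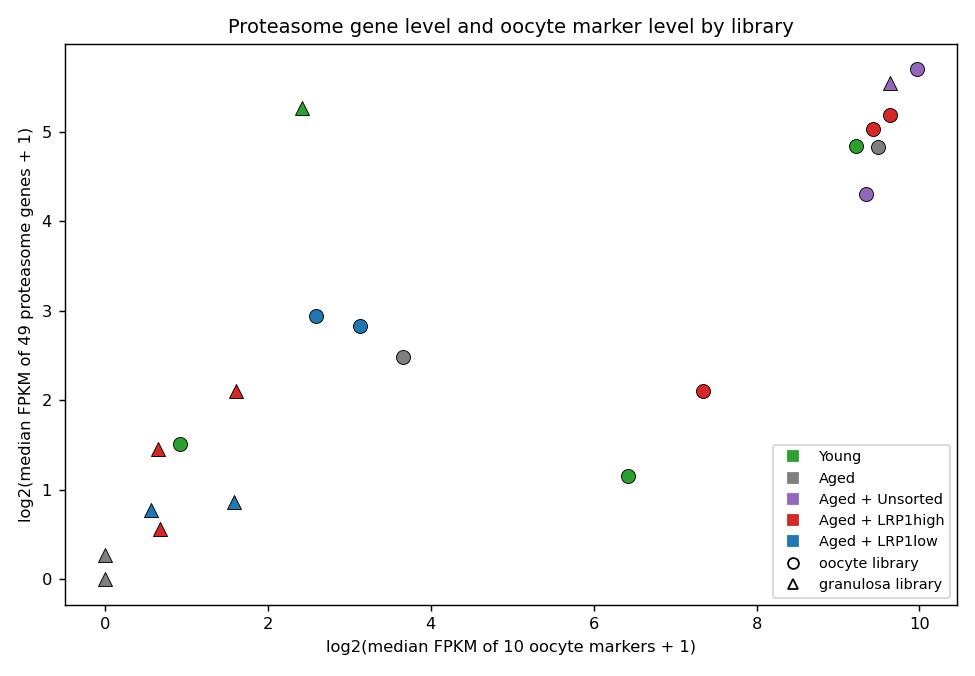
Median level of the 49 proteasome genes against the median of 10 oocyte markers, both as log2(median FPKM + 1), with 1 point per library, circles for oocyte and triangles for granulosa libraries, and colours for the groups. The granulosa Aged + Unsorted library lies among the oocyte libraries at the upper right, and the 2 oocyte Aged + LRP1low libraries lie at oocyte marker medians of 5.02 and 7.77 FPKM.

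Within oocytes the 20S alpha ring was led by Psma7, which lies at chr2:180036374-180042433. Psma7 was at 9.43, 28.0 and 646 FPKM in the Young libraries, 10.9 and 637 in Aged, 2785 and 680.1 in Aged + Unsorted, 578, 569.5 and 723 in Aged + LRP1high and 7.21 and 63.3 in Aged + LRP1low. It was the highest of the 49 genes in 8 of 12 oocyte libraries and in 4 of 9 granulosa libraries, and it carried 2.27% to 57.5% of the summed FPKM of the members in an oocyte library. The Aged + Unsorted 1 library had the highest value and the highest share. In the 7 oocyte libraries whose oocyte marker median was at least 100 FPKM, a limit set after the values were seen, Psma7 ranged from 569.5 to 2785 FPKM, with a median of 646. The median over these 7 libraries was lowest in the alpha ring for Psma3, at 13.9 FPKM, 13.4% of whose 100-base stretches also occur in the pseudogene-like Gm13835.

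The other standard subunits were spread over a narrower span. In the same 7 libraries, 21 of the 31 core and cap subunits among the members had a median between 20 and 100 FPKM, 7 lay above and 3 below. The 6 above 100 FPKM beside Psma7 were Psmb7 (219), Psmd4 (157), Psma4 (137), Psmb6 (128), Psmb2 (123) and Psmc1 (103), so they included both of the more abundant catalytic subunits, the ubiquitin receptor Psmd4, a structural beta subunit and an ATPase. Beside Psma3, the members under 20 were Psmb5, at 4.19, and Psmd13, a cap subunit, which was listed at 0 in 4 of the 7 and reached 2.82. Psmb5 lies at chr14:54614119-54618022, and 22.2% of its 100-base stretches occur in other genes. Psmb5 was at 3.20, 0.915 and 9.36 FPKM in Young, 0 in both Aged libraries, 0 and 20.3 in Aged + Unsorted, 4.19, 10.4 and 0.625 in Aged + LRP1high and 3.59 and 0 in Aged + LRP1low. Every Aged value was thus below every Young value, as in 0.646% of all genes, and Psmb5 was the only member of which this held. Psmd5 went the other way, at 15.1 and 14.7 FPKM in Aged against 2.61, 0 and 10.3 in Young. The share of all genes in that direction is not given here. The limma test of Aged against Young gave adjusted p = 0.515 or more for each member.

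The other catalytic subunits, Psmb6 (chr11:70525367-70527858) and Psmb7 (chr2:38588036-38644087), were more abundant. Psmb6 was at 3.52, 3.03 and 144 FPKM in the Young libraries, 0 and 88.7 in Aged, 93.7 and 275 in Aged + Unsorted, 128, 179.6 and 115 in Aged + LRP1high and 3.38 and 8.15 in Aged + LRP1low. Psmb7 followed at 0.480, 4.32 and 202 in the Young libraries, 3.85 and 105 in Aged, 249 and 219 in Aged + Unsorted, 253, 128 and 392 in Aged + LRP1high and 4.83 and 6.54 in Aged + LRP1low. In both genes, all Aged + LRP1high libraries lay above both Aged and both Aged + LRP1low libraries.

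The immune forms were at or near 0 in most of the oocyte libraries rich in oocyte markers, with Psmb8 in Aged 2 and Psmb9 in Aged + Unsorted 1 as exceptions. Psmb8 (chr17:34197721-34201454) was at 1.06, 0 and 0 FPKM in the Young libraries, 0 and 5.32 in Aged, 0 and 0.507 in Aged + Unsorted, 0, 0.240 and 0 in Aged + LRP1high and 4.36 and 5.19 in Aged + LRP1low. Psmb10 (chr8:105935735-105938444) was at 2.27, 0 and 0.677 in the Young libraries, 17.8 and 0.993 in Aged, 0 in both Aged + Unsorted libraries, 0, 0.577 and 0 in Aged + LRP1high and 8.42 and 8.40 in Aged + LRP1low. The values of Psmb9 (chr17:34181987-34187764) were 1.25, 0 and 0.716 in the Young libraries, 8.09 and 0 in Aged, 14.3 and 0 in Aged + Unsorted, 0, 0.364 and 0 in Aged + LRP1high and 4.50 and 7.02 in Aged + LRP1low. The summed FPKM of these 3 genes made 59.4% and 58.4% of the catalytic and immune subunits together in the 2 Aged + LRP1low libraries, against 0%, 0.369% and 0% in Aged + LRP1high and 87.1% and 3.15% in Aged. It was 38.9%, 0% and 0.390% in Young and 4.02% and 0.0986% in Aged + Unsorted. The shares of 38.9%, 87.1%, 59.4% and 58.4% belonged to Young 1, Aged 1 and Aged + LRP1low 1 and 2. Their oocyte marker medians were 0.892, 11.6, 5.02 and 7.77 FPKM, and Psmb6 and Psmb7 were at most at 8.15 FPKM in them. The part of the low oocyte marker level in these shares was not tested. The thymic form Psmb11 was at 10.4 and 2.34 FPKM in Aged + LRP1low, 9.54 in Young 1 and at most 3.80 in the other oocyte libraries.

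**Figure D3:**
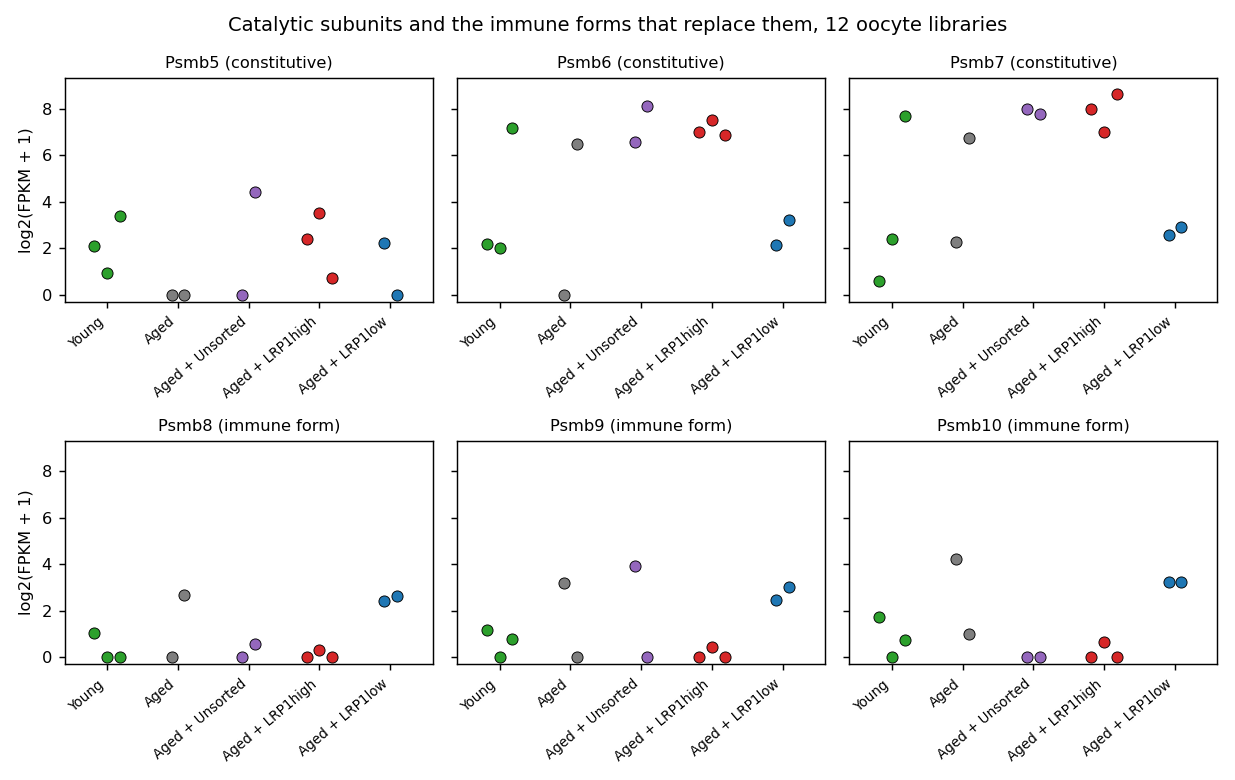
Levels of the constitutive catalytic subunits (upper row) and of the immune forms that replace them (lower row) as log2(FPKM + 1) in the 12 oocyte libraries, with 1 point per library in its group. All 3 Aged + LRP1high points lie high for Psmb6 and Psmb7 and at or near 0 for Psmb8, Psmb9 and Psmb10, and both Aged + LRP1low points lie between 3.38 and 8.42 FPKM for every one of these genes but Psmb5, where 1 is at 0.

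The activators divided into a low and a higher pair. Psme1 and Psme2, which form the activator that interferon induces, reached at most 5.88 and 9.84 FPKM in an oocyte library, and Psme2b, a copy that shares 52.0% of its 100-base stretches with Psme2, reached 23.5 in Aged 1. Psme3, a nuclear activator, had a median of 31.2 FPKM in the 7 libraries and Psme4, also nuclear and abundant in testis, had one of 20.6. The inhibitor Psmf1 ranged from 2.18 to 45.9 FPKM and was above 0 in all 12 oocyte libraries. Of the chaperones that put the cap together, Psmd10 had a median of 50.9, Psmd9 of 41.9 and Psmd5 of 13.0 in the 7 libraries. Psmg1 and its partner Psmg2, which place the alpha subunits, had medians of 28.2 and 0.345, and the other pair, Psmg3 and Psmg4, of 0.475 and 15.7. Psma8, the alpha subunit of male germ cells, was listed at 0 in 6 of 12 oocyte libraries and reached 2.55.

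Aged and Young oocytes were compared first, to ask whether the proteasome genes change with age. limma was fitted to log2(FPKM + 1) of the 12 libraries, and a call needed both a change of more than 1.5-fold and an adjusted p under 0.05. Of the members, 48 passed the filter of a mean of 1 FPKM, and Psma8 did not. None of the 48 was called in either direction, where 0.0964% of the 28004 genes tested were called higher and 0.0% lower. At an unadjusted p under 0.05, 0 members were higher and 0 lower, against 8.43% and 0.214% of all genes. The median difference of the members was 0.59 on the log2 scale and that of all genes 0.94, and under quantile normalization the former was -0.54. When single libraries were left out, the median difference of the members ranged from -0.25 to 2.17. Calls that came without Aged 2, the Aged library with the higher oocyte marker median, rest on 1 Aged library and are not read here.

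The transplanted groups were each compared with Aged, and these comparisons share the 2 Aged libraries. By limma, 0 of 48 members were called in oocytes with unsorted, LRP1high or LRP1low cells. The share of all genes called higher and lower was 0.0% and 0.0% for Aged + Unsorted, 0.0179% and 0.753% for Aged + LRP1high and 3.09% and 0.075% for Aged + LRP1low. At an unadjusted p under 0.05, 3 members were higher and 1 lower in Aged + Unsorted, where 1.7% and 7.04% of all genes were. The counts were 3 and 2 in Aged + LRP1high, against 0.925% and 9.94%, and 1 and 0 in Aged + LRP1low, against 13.2% and 0.953%. The median difference of the members was 1.52, 0.71 and -0.73 on the log2 scale in that order, and that of all genes was -0.86, -1.05 and 0.68. Rescaled to equal sums over named protein-coding genes, the medians of the members were 0.59, 0.10 and 0.03, so that of Aged + LRP1low lay on the other side of 0.

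Single members of Aged + LRP1high oocytes stood apart from both Aged libraries without passing the test. Psma4, an alpha subunit, was at 153, 243 and 137 FPKM there against 0 and 87.9 in Aged, a difference of 4.20 (SE 1.74, limma adjusted p = 0.370) on the log2 scale. Every Aged + LRP1high library lay above both Aged libraries for 9 members, Psma4, Psma5, Psmb5, Psmb6, Psmb7, Psmd1, Psmd7, Psmd9 and Psmd11, where 3.85% of all genes did so. Each lay below for 3 members, Psmb4, Psmb10 and Psmd5, where 12.4% of all genes did. Part of this was shared with Aged + Unsorted, where Psma4 was at 262 and 95.4 FPKM. Both of its libraries also lay above both Aged libraries for Psmb6, Psmb7, Psmd1 and Psmd9, and below them for Psmb10. They did not for Psma5, Psmb5, Psmd7, Psmd11, Psmb4 and Psmd5. In all, both Aged + Unsorted libraries lay above both Aged libraries for 16 members and below for 2. The share of all genes is not given for these 2 counts, so they are not read as a result about the members. The 7 immune cell markers summed to 41.9 to 54.8 FPKM in the 2 Aged libraries, with C1qa at 0 in both, and to 0.0194 to 1.25 in Aged + LRP1high, 0.303 to 0.750 in Aged + Unsorted and 0 to 9.36 in Young, and their part in the values was not tested. Calls that came without Aged 2 in the comparisons with Aged rest on 1 Aged library and are not read here. Aged 1, the library then left, had an oocyte marker median of 11.6 FPKM and spent 42.6% of its TPM on Gm10800, against 716 FPKM and 17.4% in Aged 2, and the part of these in the calls was not tested.

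Against Young, Aged + LRP1high oocytes again had no member called by limma, and 0.0% of all genes were called in either direction. At an unadjusted p under 0.05, 8 of 48 members were higher and 0 lower, against 2.96% and 0.211% of all genes. The 8 were Psma4, Psmb7, Psmc1, Psmd1, Psmd4, Psmd7, Psmd9 and Psmd11. Psmd9, the chaperone of the ATPase ring, was at 41.9, 38.8 and 43.2 FPKM in Aged + LRP1high and at 1.92, 2.11 and 19.6 in Young, with a difference of 2.88 (SE 0.78, unadjusted p = 0.00340, limma adjusted p = 1). Without Young 3, 3 members were called higher, Psmb7, Psmc1 and Psmd9, and the share of all genes called in that fit is not given here. Young 3 had an oocyte marker median of 595 FPKM, against 0.892 and 84.9 in the other Young libraries.

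Oocytes of mice with LRP1high and with LRP1low cells were compared to set the sorted fractions against each other. Psmb8 and Psmb10, immune forms of the catalytic subunits, were lower in Aged + LRP1high by limma, and no member was called higher. The difference of Psmb8 was -2.42 (SE 0.79, adjusted p = 0.0468) and that of Psmb10 was -3.01 (SE 0.90, adjusted p = 0.0390) on the log2 scale, and all 3 Aged + LRP1high libraries lay below both Aged + LRP1low libraries in both genes. These 2 of 48 members are 4.17%, where 24.8% of all genes were called lower and 1.21% higher. The median difference of all genes was -1.89, so relative to it Psmb8 was at -0.53 and Psmb10 at -1.12. Of the exonic bases of Psmb8, 14.7% lie opposite the antisense gene Gm20496, and the use of strand in counting is not given in the sources used here. Psmb8 passed the filter of a mean of 1 FPKM only through the Aged + LRP1low libraries, in which it was high. Its mean was 1.39 FPKM over the 12 libraries and 0.714 without these 2, against 3.27 and 2.24 for Psmb10, and with no filter the adjusted p of Psmb8 was 0.0231. With quantile normalization, the difference of Psmb8 was -0.33 (adjusted p = 0.850) and that of Psmb10 was -1.86 (adjusted p = 0.216). With TPM, 3 members were called higher and 3 lower, and with only the 2 groups compared in the fit, 16 and 5. No share of all genes called stands beside these counts, so they are not read as a result about the members. Both calls ended when any 1 of the 5 libraries was left out, each of which gave 0 members called.

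The medians of the standard subunits lay on the other side of 0 in this comparison. The median difference was 2.71 for the 7 alpha subunits, 4.46 for Psmb5, Psmb6 and Psmb7, 1.75 for the 4 structural beta subunits, 1.78 for the 6 ATPases and 1.66 for the 11 non-ATPase subunits, against -2.50 for the 4 immune and thymic forms. All 48 members together had a median of 1.64, which was 1.89 with quantile normalization and 0.24 with equal sums over named protein-coding genes. Psmb7 had the largest difference, 5.15 (SE 1.79), with an adjusted p = 0.0534 by limma, followed by Psma5 at 4.95 (SE 1.71, adjusted p = 0.0523), and neither passed the test. At an unadjusted p under 0.05, 11 members were higher and 5 lower, or 22.9% and 10.4% of 48, against 3.17% and 45.9% of all genes. Every Aged + LRP1high library lay above both Aged + LRP1low libraries for 18 members, where 6.82% of all genes did so, and below for 6, where 62.6% did. The 6 were Psmb8, Psmb9, Psmb10, Psmd13, Psme1 and Psmg2.

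Markers of other cells moved with this comparison. The summed FPKM of the 10 oocyte markers was 3507 to 9246 in Aged + LRP1high and 53.0 to 166 in Aged + LRP1low, with all 10 found. That of the 7 immune cell markers was 0.0194 to 1.25 in Aged + LRP1high, where Lyz2 was at 0 in all libraries, and 38.1 to 42.5 in Aged + LRP1low, where no marker was at 0 in both. The 10 granulosa and cumulus markers summed to 0.259 to 16.8 and 50.5 to 56.7, and the 6 stromal markers to 0.289 to 1.25 and 33.4 to 38.8. Gm10800 took 0.0390% to 1.52% of the TPM in Aged + LRP1high and 37.5% and 55.5% in Aged + LRP1low. Aligned sequence was 2.29 to 3.15 gigabases in Aged + LRP1high and 0.278 and 0.515 in Aged + LRP1low. The part of these differences in the values of the proteasome genes was not tested.

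**Figure D4:**
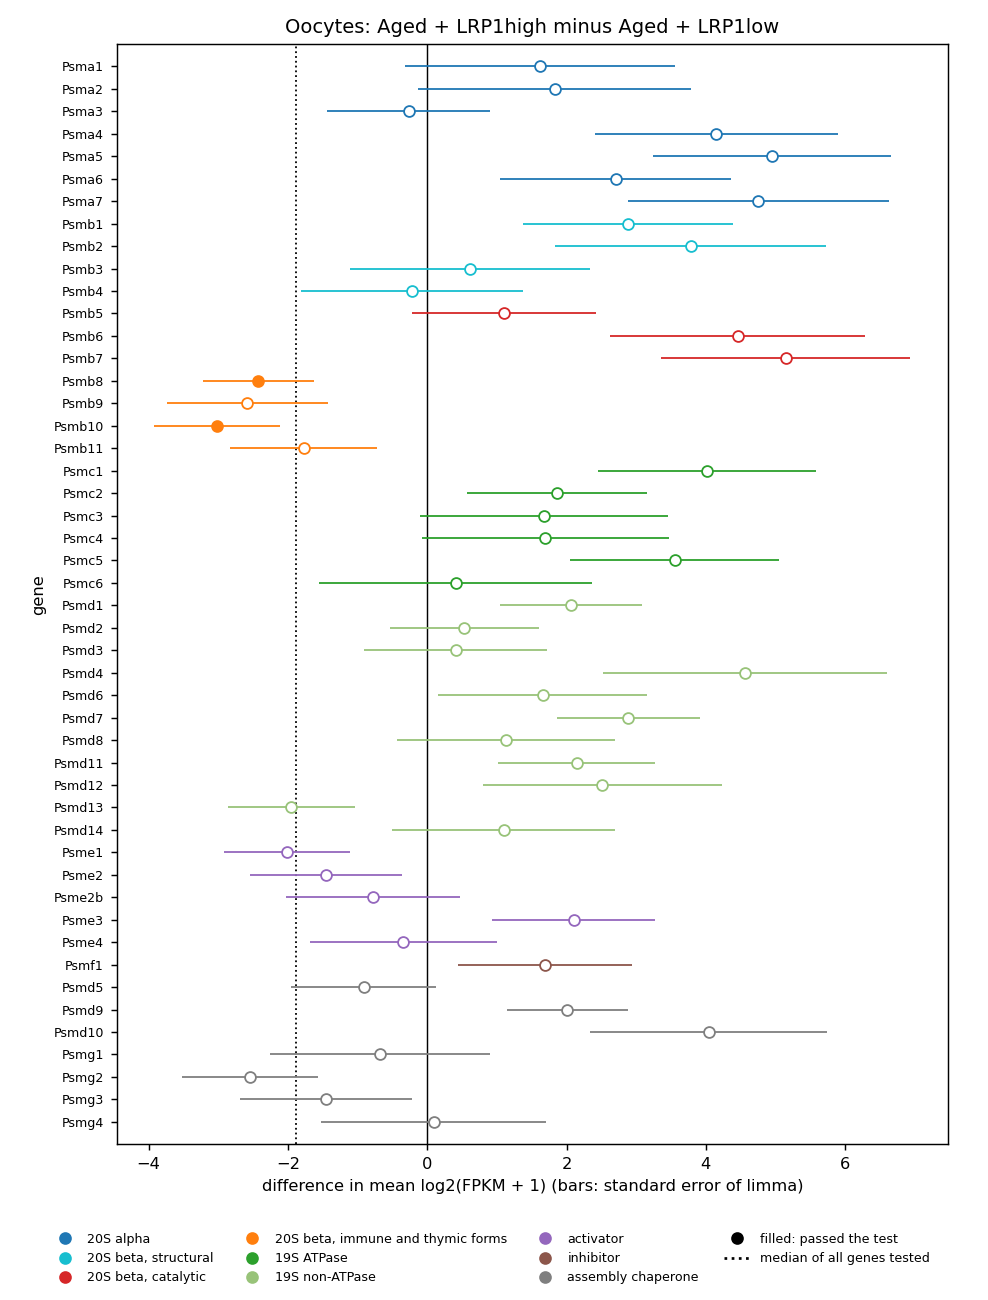
Difference in mean log2(FPKM + 1) between Aged + LRP1high (3 libraries) and Aged + LRP1low (2 libraries) oocytes for the 48 members tested, coloured by role, with bars for the standard error of limma and filled points for members that passed the test. Psmb8 and Psmb10 are the filled points, and the dotted line marks the median of all genes tested at -1.89.

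In granulosa cells no member passed the test in any of 3 comparisons. Of the members, 46 passed the filter, and Psmb8, Psmb9 and Psmb11 did not. Psmf1 passed only through the Aged + Unsorted library, with a mean of 4.75 FPKM with it and 0.817 without. Psmb10, Psmd13 and Psme1 would not have passed without the Young library. Nor would Psma8 without Aged + LRP1low, or Psmb10 without Aged + LRP1high. limma called 0 of 46 members in Aged + LRP1high against Aged, in Aged + LRP1low against Aged and in Aged + LRP1high against Aged + LRP1low, where 0.0% of the 13002 genes tested were called in either direction. At an unadjusted p under 0.05, 2, 1 and 1 members were higher, against 7.99%, 3.05% and 4.14% of all genes, and 0 were lower, against 0.515%, 0.738% and 1.01%. The 2 were Psmc3 and Psmc4, both ATPases of the cap. Psmc3 was at 8.73, 2.32 and 14.5 FPKM in Aged + LRP1high and listed at 0 in both Aged libraries, and its unadjusted p was 0.00706 and its limma adjusted p = 0.458. It was at 0 and 1.07 in Aged + LRP1low.

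The granulosa members lay mostly above Aged in both transplanted groups. All Aged + LRP1high libraries lay above both Aged libraries for 20 of 46 members, but 50.4% of all genes did so. For Aged + LRP1low the count was 22 members and the share of all genes 30.5%. Both counts include Psmf1. The median difference of the members was 1.20 in Aged + LRP1high and 0.63 in Aged + LRP1low, and that of all genes 0.89 and 0.31. Rescaled to equal sums over named protein-coding genes, the medians of the members were 0.26 and 0.54 and those of all genes -0.49 and -1.09. With quantile normalization, the medians of the members were 0.30 and 0.50. Psmd4, which binds ubiquitin, was 0 in both Aged libraries, at 5.50, 0.410 and 2.13 FPKM in Aged + LRP1high and at 0 and 0.675 in Aged + LRP1low. Calls that came without Aged + LRP1low 2 rest on 1 Aged + LRP1low library and are not read here. The library then left, Aged + LRP1low 1, had 21 of 49 members at 0, and its luteal markers summed to 5660 FPKM. Gm10800 took 81.9% and 83.3% of the TPM of the Aged libraries, and their 10 granulosa and cumulus markers summed to 1.23 and 1.46 FPKM, with Amh and Inha at 0 in both. The part of this in the differences was not tested.

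Oocytes and granulosa cells were set side by side in Aged + LRP1high, the group with 3 libraries of each. limma called 8 of 49 members higher in oocytes and 0 lower, or 16.3%, where 5.07% of the 21767 genes tested were called higher and 0.175% lower. They were the alpha subunits Psma4 and Psma5, the catalytic subunit Psmb7, the ATPase Psmc1, the cap subunits Psmd1 and Psmd4, the chaperone Psmd9 and the inhibitor Psmf1. Psmb7 was at 253, 128 and 392 FPKM in oocytes and 1.26, 0.0386 and 0.578 in granulosa cells, a difference of 7.24 (SE 1.33, adjusted p = 0.00708). Psmc1, which lies at chr12:100110154-100123405, was at 103, 49.9 and 567 against 0, 0 and 1.39, a difference of 6.75 (SE 1.20, adjusted p = 0.00686). In both genes the libraries of the cell types were far apart. Psmd9 was at 41.9, 38.8 and 43.2 in oocytes and 2.23, 0.961 and 2.10 in granulosa cells, a difference of 3.97 (SE 0.71, adjusted p = 0.00708), although 25.5% of its exonic bases overlap Gm26745.

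The other calls were smaller or less even. Psma4 was at 4.78, 0.106 and 2.30 FPKM in granulosa cells, and its difference was 5.97 (SE 1.34, adjusted p = 0.0143). Psmd4 differed by 5.94 (SE 1.53, adjusted p = 0.0309) and Psma5 by 5.26 (SE 1.48, adjusted p = 0.0471). Psmf1, named for its inhibition of the core, was at 35.8, 37.3 and 5.58 in oocytes and 1.29, 0.667 and 0.591 in granulosa cells, with a difference of 3.52 (SE 0.95, adjusted p = 0.0386). Psmd1 was at 35.0, 49.4 and 29.9 in oocytes and 8.00, 1.16 and 2.11 in granulosa cells, with a difference of 3.29 (SE 0.87, adjusted p = 0.0350). Psmb7 and Psmc1 kept their calls with quantile normalization (adjusted p = 0.0269 and 0.0393), and the other 6 did not.

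The direction was not shared by all roles. The median difference was 4.46 for the alpha subunits, 4.69 for the catalytic, 3.51 for the ATPases and 3.29 for the non-ATPase subunits of the cap. It was -0.50 for the 5 activators and -0.67 for the 4 immune and thymic forms, and none of these was called. Psmg2, the partner of Psmg1, had the lowest difference of the members, -2.83 (SE 1.08, limma adjusted p = 0.175), with 0.345, 0.0543 and 0 FPKM in oocytes and 10.1, 0.517 and 29.2 in granulosa cells. Every oocyte library lay above every granulosa library for 21 members, where 11.4% of all genes did, and below for Psmb8 and Psmg2, where 20.1% did. Psmb8 passed the filter of this fit only with the granulosa Aged + LRP1high libraries counted, in which it was the higher, so it is not read here. At an unadjusted p under 0.05, 26 members were higher and 1 lower, against 13.2% and 2.94% of all genes. The number called was 3 without oocyte Aged + LRP1high 1, 3 without 2 and 12 without 3, and 5, 3 and 5 without granulosa libraries 1, 2 and 3. The share of all genes called in these fits is not given here. Gm10800 took 61.0% to 86.6% of the TPM of these granulosa libraries, against at most 1.52% in the oocyte libraries, and its part in the differences was not tested. These granulosa libraries stood apart from each other in their own markers, whose median was 1.93, 0.326 and 21.4 FPKM and whose sum ranged from 5.01 to 572 FPKM over 10 markers, none of them at 0 in all 3 libraries. Their 6 luteal markers summed to 7.37 to 1789 FPKM, and the part of these markers was not tested either. Rescaled to equal sums over named protein-coding genes, 2 members were called, Psmb7 and Psmc1, and the share of all genes called is not given here. The median difference of the members was then 0.61 in place of 2.70, and that of all genes -1.28 in place of -0.18.

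**Figure D5:**
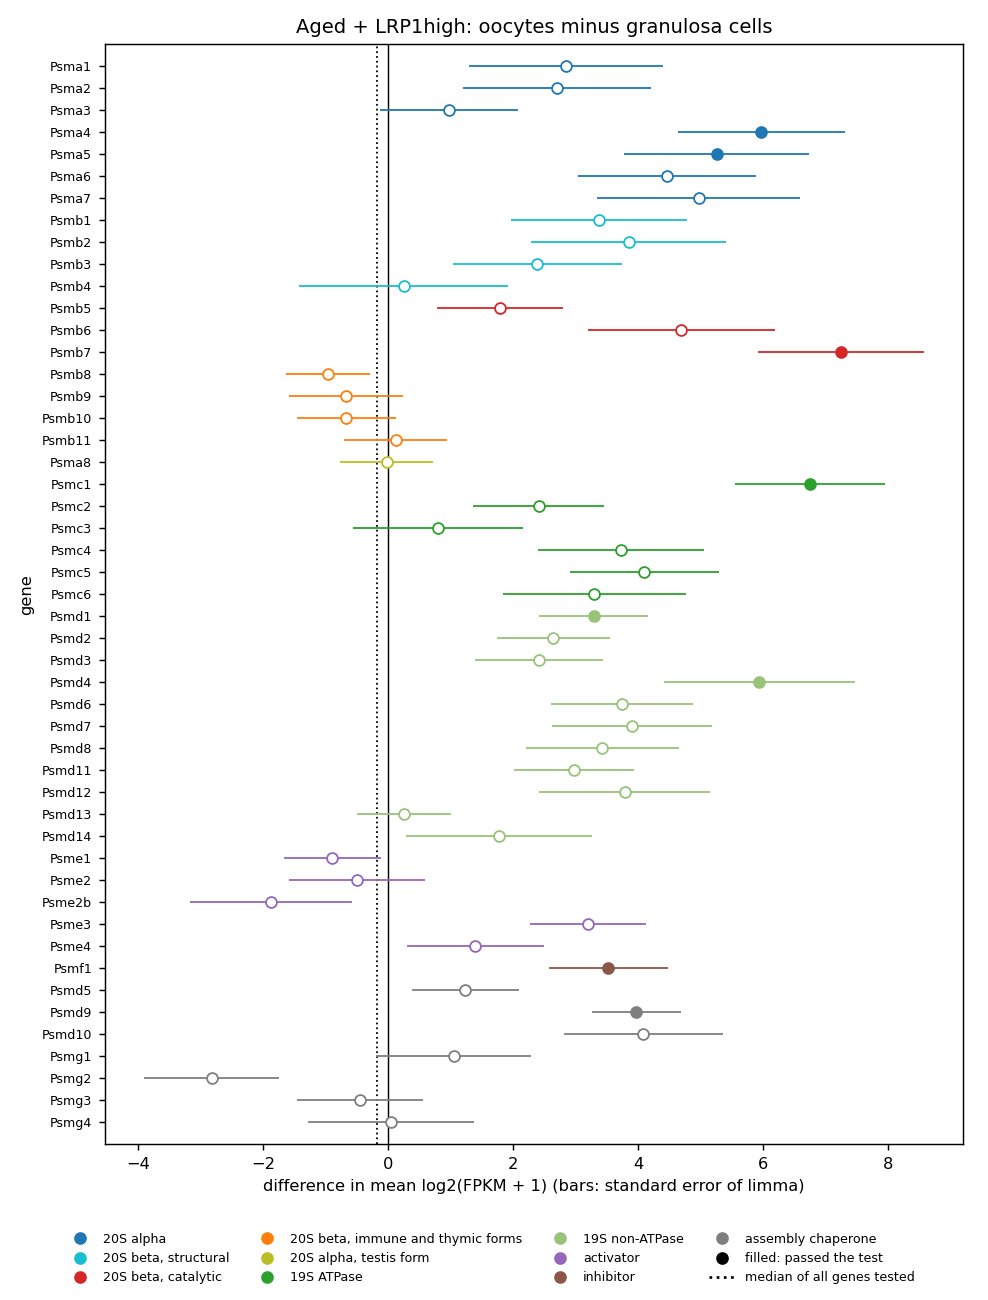
Difference in mean log2(FPKM + 1) between oocytes (3 libraries) and granulosa cells (3 libraries) of Aged + LRP1high mice for the 49 members, coloured by role, with bars for the standard error of limma and filled points for members that passed the test. The 8 filled points lie between 3.29 and 7.24, and the dotted line marks the median of all genes tested at -0.18.

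Whether the change from Aged to Aged + LRP1high differed between the cell types was tested as an interaction. limma called 0 of 49 members, with 0 higher and 3 lower at an unadjusted p under 0.05, where 0.221% and 15.8% of all genes were, and 0.0% of the 21767 genes were called in either direction. When single libraries were left out, the median of the members in this interaction ranged from -1.40 to 0.56. Calls that came without oocyte Aged 1 or without oocyte Aged 2 rest on 1 Aged oocyte library and are not read here.

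Other genes of the ubiquitin and proteasome pathway were followed from a list of 29, of which 28 were found and Paaf1 was not analysed here. In 9 of the 11 comparisons none of them was called. Between oocytes and granulosa cells of Aged + LRP1high, those called higher in oocytes included Akirin2 (5.67, SE 1.38, limma adjusted p = 0.0231), which takes part in nuclear import of proteasomes, the ubiquitin receptor Adrm1 (2.82, SE 0.73, adjusted p = 0.0318) and Nploc4 (3.65, SE 0.95, adjusted p = 0.0333), a partner of the segregase Vcp, and 0 were called lower. Akirin2 was at 353, 166 and 17.9 FPKM in oocytes and 3.94, 0.695 and 0 in granulosa cells. Akirin2 kept its call with quantile normalization (adjusted p = 0.0398) and lost it with equal sums over named protein-coding genes (adjusted p = 0.210). Adrm1 lost its call under both (adjusted p = 0.506 and 0.704), and so did Nploc4 (adjusted p = 0.367 and 0.331).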

How the data were processed

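RNA of oocytes and granulosa cells was sequenced in 21 libraries, grouped by their labels. Per the labels, the authors aligned reads with HISAT2 2.2.1 to mm9 and computed values with StringTie 1.3.3b, but all 49 identifiers and coordinates used here are those of GENCODE on GRCm38. The labels name a KAPA stranded kit and the methods name Smart-seq2, which does not keep strand, so the strand of the reads is unsettled. For each gene the authors deposited coverage (mean read depth), FPKM and TPM, and no counts were used, so counting intervals cannot be given.

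Repeated identifiers were summed. Linear models (limma 3.58.1, run in R 4.3.3, lmFit then eBayes) were fitted to log2(FPKM + 1). Genes entered when their FPKM averaged 1 or more over the fitted libraries, with all groups of a cell type (or all 21 libraries) in one model and Benjamini-Hochberg adjustment over all genes tested. Differences understate the change of low genes. Named members are those called, the catalytic, immune, activator, inhibitor and assembly genes, and the highest and lowest of each role. Members, gene lists and tests were chosen with earlier results of these data known. Shared sequence and overlaps were computed from GENCODE vM21. Some genes of the ubiquitin pathway list are not reported here. The model was tested on simulated data. Alternatives are in the closing section.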

Additional observations from a re-analysis of the deposited data

Results flagged for a closer look

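The granulosa Aged + Unsorted library is the only one of its group and forms neither side of a comparison, though it counts in the filter. Its values exceeded those of the untreated granulosa Aged libraries. The median of its 49 proteasome genes was 45.91 FPKM, against at most 0.211 in granulosa Aged, and the median of its 10 oocyte markers was 799.7 FPKM, against 0. The single granulosa Young library, which also forms neither side of a comparison, had a proteasome gene median of 37.4 FPKM, above the same 0.211. No group held enough libraries for a test of single outlying libraries, and no difference between the cell types in the response to LRP1high cells passed its test.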

How the results depend on the processing

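Of 191 recounts of called members over 11 comparisons, 155 stayed within 1.5 times the main count or at 0. In 9 of these comparisons the main count was 0. Where members were called, 1 of 16 recounts stayed for Aged + LRP1high against Aged + LRP1low oocytes. For oocytes against granulosa cells, 6 of 19 did. For Aged + LRP1high against Aged + LRP1low oocytes, where 2 members were called, the count was 0 with a pseudocount of 0.1, a mean FPKM of at least 10 or quantile normalization, 1 with a pseudocount of 10, 6 with TPM, 9 with equal member sums, 4 with trend and robust estimation, 6 with equal sums of named protein-coding genes and 21 with only the groups compared. Leaving out single libraries gave 0 to 0 there. For oocytes against granulosa cells, where 8 were called, it was 5 with a pseudocount of 0.1, 1 with no filter, 19 with a mean of at least 10, 2 with quantile normalization, 0 with equal member sums, 5 with trend and robust estimation, 2 with equal named protein-coding sums and 19 with only the groups compared, and 3 to 12 when single libraries were left out. With equal member sums, Psmd1 turned to -0.62 and Adrm1 to -0.95 on the log2 scale, but dividing by the sum of the members takes out their common shift by construction, so this setting says nothing of their direction. Where a group is left with 1 library, that library is assumed to vary like the others. In comparisons with no call, leaving out single libraries gave 0 to 2 members for Aged against Young, 0 to 10, 0 to 8 and 0 to 1 for Aged + Unsorted, Aged + LRP1high and Aged + LRP1low against Aged, 0 to 3 for Aged + LRP1high against Young, 0 to 3 for granulosa Aged + LRP1low against Aged and 0 to 6 for the interaction. No share of all genes called stands beside the counts of this paragraph, so they are not a result about the members. The cause of these changes was not tested. The scaling to named protein-coding genes and the fits without the granulosa Aged + Unsorted library were chosen after seeing the data, and the latter left every count within the same bounds.

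Deviations of same-numbered libraries from their group means correlated from -0.44 to 0.44 over 21 pairs in oocytes, 4 of them above 0.1. In granulosa cells 1 of 6 pairs was above 0.1. Across the cell types the correlations ran from -0.17 to 0.21 over 32 pairs, 1 of them above 0.1. In a group of 2 libraries the deviations mirror each other, so this check cannot exclude pairing. The main fits treat the libraries as unpaired. With the replicate block, the count for Aged + LRP1high against Aged + LRP1low was 0, that for oocytes against granulosa cells was 8, of which 7 were shared with the main 8, and every other count was 0.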

Other observations

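The granulosa Young library, of which there is only 1, differed from the 12 oocyte libraries in several proteasome genes. Psme1 and Psme2, the subunits of the activator that interferon induces, were at 43.4 and 51.7 FPKM, against at most 5.88 and 9.84 in an oocyte library. Psmg2, which helps to place the alpha subunits, was at 47.9 FPKM, against at most 18.8. The inhibitor Psmf1 was at 1.77 FPKM, below the lowest oocyte value of 2.18. Psma7 was its highest member, at 275 FPKM, and made 11.4% of the summed FPKM of the members, within the oocyte range of 2.27% to 57.5%. The immune forms Psmb8, Psmb9 and Psmb10, at 0, 4.17 and 4.96 FPKM, and Psmd9, at 2.31 FPKM, also lay within the oocyte range. Markers of other cells were present in the library, with sums of 1030 FPKM for the 6 luteal, 176 for the 6 stromal, 63.5 for the 5 red blood cell, 30.2 for the 4 endothelial and 19.4 for the 7 immune markers, against 1978 for the 10 granulosa and cumulus markers, and their part in these values was not tested. With 1 library, these differences have no replicate check and no test was made.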
